A study of Rattus norvegicus with 90 samples.

Results

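The 16 libraries described here are fetal livers of gestation day (GD) 18 whose dams received NBP2 by mouth at 0.1, 0.3, 1 or 3 mg/kg/d, pooled as 1 low-dose group and set against 6 fetal livers of control dams (0 mg/kg/d). They were chosen by stage, age and dose as the labels give them, 16 treated and 6 control libraries of 90 in the series. Each low dose has 4 libraries, 2 in each of study blocks 140 and 143, and each block has 3 controls. NBP2 is Nafion byproduct 2, a polyfluoroalkyl compound. Time-mated Sprague Dawley dams (Crl:CD(SD), about 90 days old) were dosed from GD14 to GD18, and dams and fetuses were killed 2 to 4 h after the last dose. The controls differ from the treated animals in the labels by treatment and dose only, and all animals share the strain, diet and housing. RNA of liver pieces was read with TempO-Seq, in which a pair of oligonucleotides is ligated on each target transcript and the ligated product is counted. Each fetal library comes from a different dam, named here by the dam's number. The labels do not say whether 1 fetus or several of a litter gave the tissue, nor the sex of the fetus. The p-values measure the spread between these litters.

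PPAR-alpha is a nuclear receptor that is switched on by fatty acids and by many fluorinated acids, and in rodent liver it raises genes that bind, activate and burn fatty acids in peroxisomes and mitochondria. CAR and PXR are related receptors that raise drug-metabolising enzymes. The late fetal liver is at the same time a young metabolic organ, with hepatocytes that still make alpha-fetoprotein, and a site of blood formation, so its RNA also comes from red cell precursors, granulocytes and macrophages.

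The tissue label was checked against marker genes. The summed level of 15 fetal hepatocyte markers, in CPM (counts per 1000000 counts), was 20156 to 28080 in the controls and 20781 to 27594 in the low-dose libraries. The 27 erythroid markers in the file summed to 109943 to 144810 CPM in the controls and 76714 to 141134 CPM in the low-dose libraries. Markers of intestine stayed between 2.37 and 23.0 CPM and those of kidney and adrenal between 1.21 and 20.4 CPM over the 22 libraries, and no marker in those lists was at 0 in every library. Exocrine pancreas markers reached 81.4 CPM in a control and 321 CPM in a low-dose library.

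Some libraries stood apart. Total counts were 4263820 to 7265191 in these 22 libraries. The summed CPM of 1244 olfactory, vomeronasal and taste receptor genes, which liver is not known to use, was 18.0 to 41.8 in block 143. In block 140 it was 130 to 5335, and all 3 controls of that block (dams 2069, 2070 and 2071) and the low-dose libraries of dams 2073, 2074 and 2079 exceeded 1000 CPM. These 6 libraries had a count for 18738 to 20329 genes, against at most 16969 in the others. The first principal component of log2 CPM held 63.1% of the variance over the 22 libraries. On it these 6 lay at 38.9 to 109.5 and the others at most at 20.02. In block 140 the median receptor sum was 1489 CPM in the 3 controls and 577 CPM in the 8 low-dose libraries, and in block 143 the medians were 35.4 and 34.5 CPM. An exact permutation test of the receptor sum on log2(CPM + 1), two-sided, gave p = 0.722 over all 22 libraries and, chosen after seeing the data, p = 0.484 with libraries permuted within blocks, which does not show that the groups were alike. Haemoglobin genes took 10.7% to 13.3% of counts in controls and 6.25% to 14.8% in the low-dose libraries (exact permutation p = 0.357, and 0.321 within blocks). The summed Y-linked CPM was either at most 1.21 or at least 250 in each fetal library, and it was on the upper side in 5 of 6 controls and 10 of 16 low-dose libraries (exact permutation p = 0.647, and 0.594 within blocks).

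**Figure D1:**
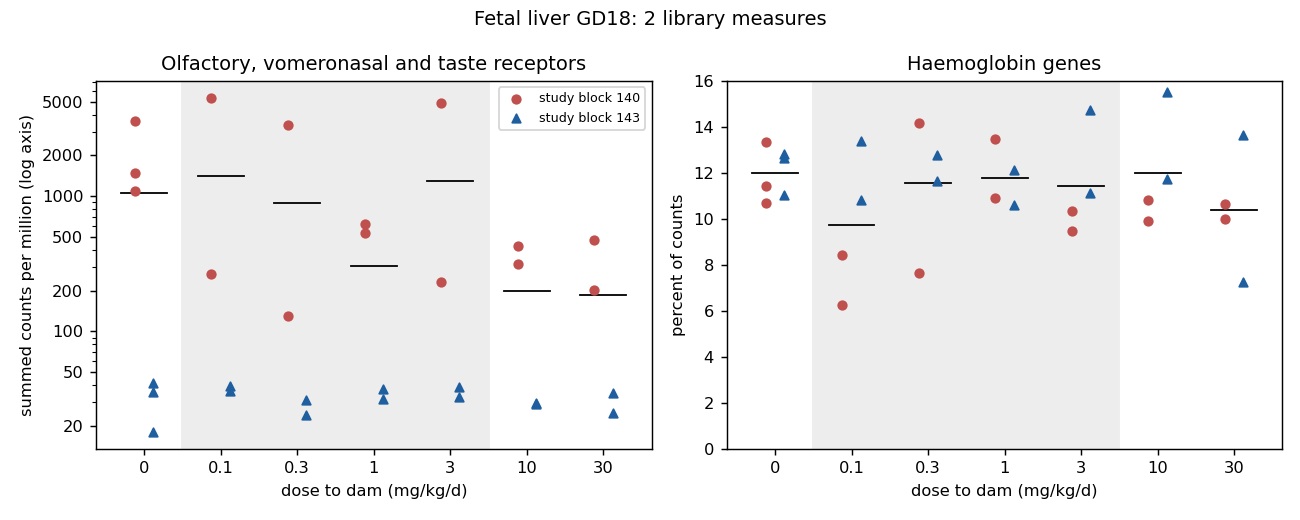
Summed CPM of 1244 receptor genes on a log axis (left) and percent of counts from haemoglobin genes (right) for each of the 30 fetal GD18 libraries by dose, with the low doses shaded, the group mean as a line, circles for block 140 and triangles for block 143. Block 143 lies between 18.0 and 41.8 CPM at the control and low doses, and block 140 spreads up to 5335 CPM.

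In the pooled comparison no gene changed at an adjusted threshold of 0.05. The edgeR quasi-likelihood test with study block as a term called 0 of 11126 genes (0%), with a lowest adjusted p of 0.562. At an unadjusted p under 0.05 there were 276 genes, 157 higher (1.41% of genes tested) and 119 lower (1.07%) at the low doses. Together they were 2.48% of genes tested by edgeR, less than the share of 0.05 met on average with no difference. DESeq2 called 0 genes with a lowest adjusted p of 0.0806 and 272 genes at an unadjusted p under 0.05, and limma-voom with sample weights called 0 with a lowest adjusted p of 0.0897 and 882 genes at an unadjusted p under 0.05. The median log2 fold change over all genes was 0.01, and the median standard error (SE) was 0.17. For 9524 genes, 85.6% of those tested, the whole 95% interval of the fold change lay within 1 log2 unit of 0. A p that misses the threshold does not show that the groups were alike, and the intervals below give the size of difference that these libraries leave room for.

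Genes of fatty acid binding and of the PPAR-alpha response are given first. None of them was called at the low doses. Fabp1, the liver fatty acid binding protein (chromosome 4, 99063181 to 99066955, rn6), had 44.8, 66.2 and 98.5 CPM as the lowest, median and highest of the controls. The low-dose libraries had 40.7, 81.9 and 138 CPM. The ranges overlapped, with 5 low-dose libraries above every control and 1 below. The log2 fold change was 0.20 (95% interval -0.23 to 0.62, unadjusted p = 0.348). At 30 mg/kg/d the 4 libraries had 438, 382, 394 and 291 CPM, all above every low-dose library.

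The omega-hydroxylases Cyp4a2 and Cyp4a3, which oxidise the tail end of fatty acids and are textbook PPAR-alpha targets, had low-dose medians close to those of the controls. Cyp4a3 (chromosome 5, 134469270 to 134484840) had 4.27, 6.26 and 9.66 CPM in the controls and 3.19, 6.85 and 10.96 CPM at the low doses, as lowest, median and highest. Its log2 fold change was 0.02 (95% interval -0.39 to 0.43), with 13 of 16 low-dose libraries inside the range of the controls. Cyp4a2 (chromosome 5, 134196912 to 134207864) had 3.56, 4.57 and 5.97 CPM in the controls and 1.94, 4.60 and 15.6 CPM at the low doses, a log2 fold change of 0.14 (-0.43 to 0.71). The 2 highest low-dose libraries, 15.6 CPM for dam 2073 and 12.9 CPM for dam 2079, are among those with a receptor sum above 1000 CPM, and the part of that in their Cyp4a2 level was not tested. Estimated counts of Cyp4a2 and Cyp4a3 are not all whole, so reads may have been divided between near copies. Cyp4a1 had too few counts to be tested, with a mean of 0.573 CPM in the controls and 0.785 CPM at the low doses.

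The bases just upstream of the annotated starts are shown for Fabp1, Cyp4a2 and Cyp4a3, because these genes were not called at the low doses and all rose at 30 mg/kg/d. They are from RefSeq, build GRCr8, in which positions differ from those of rn6 above. A direct repeat with 1 spacer, AGGTCANAGGTCA, was searched on both strands of the 250 bases upstream of each start with at most 1 of the 12 fixed letters mismatched. Such a match was in 123 of 33469 promoters (0.368%), and in 1 of the 12 genes that differed at 30 mg/kg/d and have a promoter in the table. That gene was Fabp1, where the match is on the reverse strand and starts 77 bases before the gene's start. Capitals mark the closest 13 bases. In Cyp4a2 and Cyp4a3 they carry 3 mismatches and start 112 bases before the start. The 2 Cyp4a windows share an unbroken run of 57 bases. A match in letters is a description and not a binding site.
Fabp1, chr4:104749220-104749339, plus strand: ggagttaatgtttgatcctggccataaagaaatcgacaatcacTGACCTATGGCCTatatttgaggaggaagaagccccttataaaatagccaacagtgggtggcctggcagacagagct
Cyp4a2, chr5:134170909-134171028, minus strand: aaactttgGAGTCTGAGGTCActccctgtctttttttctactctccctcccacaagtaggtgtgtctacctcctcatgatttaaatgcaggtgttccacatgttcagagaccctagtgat
Cyp4a3, chr5:134352237-134352356, minus strand: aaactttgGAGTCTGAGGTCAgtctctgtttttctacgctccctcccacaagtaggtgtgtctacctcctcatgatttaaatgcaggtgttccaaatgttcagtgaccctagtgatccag

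Among enzymes of peroxisomal fatty acid breakdown, Ehhadh was the one with an unadjusted p under 0.05. Ehhadh is the bifunctional hydratase and dehydrogenase of the pathway (chromosome 11, 82945104 to 82978365). Controls had 1.15, 2.39 and 3.71 CPM and low-dose libraries 1.24, 3.28 and 8.05 CPM, as lowest, median and highest, and 13 of the 16 low-dose libraries lay above the control median. The log2 fold change was 0.51 ± 0.24 (SE), with a 95% interval of 0.0051 to 1.01 and an unadjusted p of 0.0479. By dose it was 0.88 at 0.1, 0.46 at 0.3, 0.07 at 1 and 0.55 at 3 mg/kg/d, so the values did not rank by dose. The highest library was again that of dam 2073, which had a receptor sum of 5335 CPM. With 1 library left out the pooled value ran from 0.41 to 0.61. With DESeq2, limma-voom, RLE scaling or the Y-linked covariate, no PPAR-alpha lipid target, Ehhadh included, was higher at an unadjusted p under 0.05. With the receptor covariate 2 were, and with the haemoglobin covariate 1. With 1 library left out 0 to 2 were, and 0 without that of dam 2073. Acot1, an acyl-CoA thioesterase, was 0.743 to 3.61 CPM at the low doses against 1.15 to 3.88 CPM in the controls, a log2 fold change of -0.15 (-0.84 to 0.53).

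None of the mitochondrial fatty acid genes was called. The log2 fold change of Cpt1a, the gate for fatty acid entry into mitochondria, was 0.05 (-0.46 to 0.57), that of its partner Cpt2 was 0.08 (-0.15 to 0.30), that of the dehydrogenase Acadm was 0.06 (-0.22 to 0.35) and that of Hadha, a subunit of the trifunctional protein, was 0.03 (-0.14 to 0.21). Lpl, which frees fatty acids from lipoproteins, was 136 to 185 CPM at the low doses and 124 to 153 CPM in the controls, and 11 of 16 low-dose libraries exceeded every control. Its log2 fold change was 0.15 (-0.02 to 0.33, unadjusted p = 0.0884). Vnn1, a pantetheinase, gave 0.01 (-0.36 to 0.38), the lipid droplet protein Hsd17b13 gave 0.16 (-0.15 to 0.48), and Adtrp, a hydrolase of hydroxy fatty acid esters, gave 0.04 (-0.21 to 0.29). Pdk4, Fasn and Plin2 were below the filter on low counts.

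**Figure D2:**
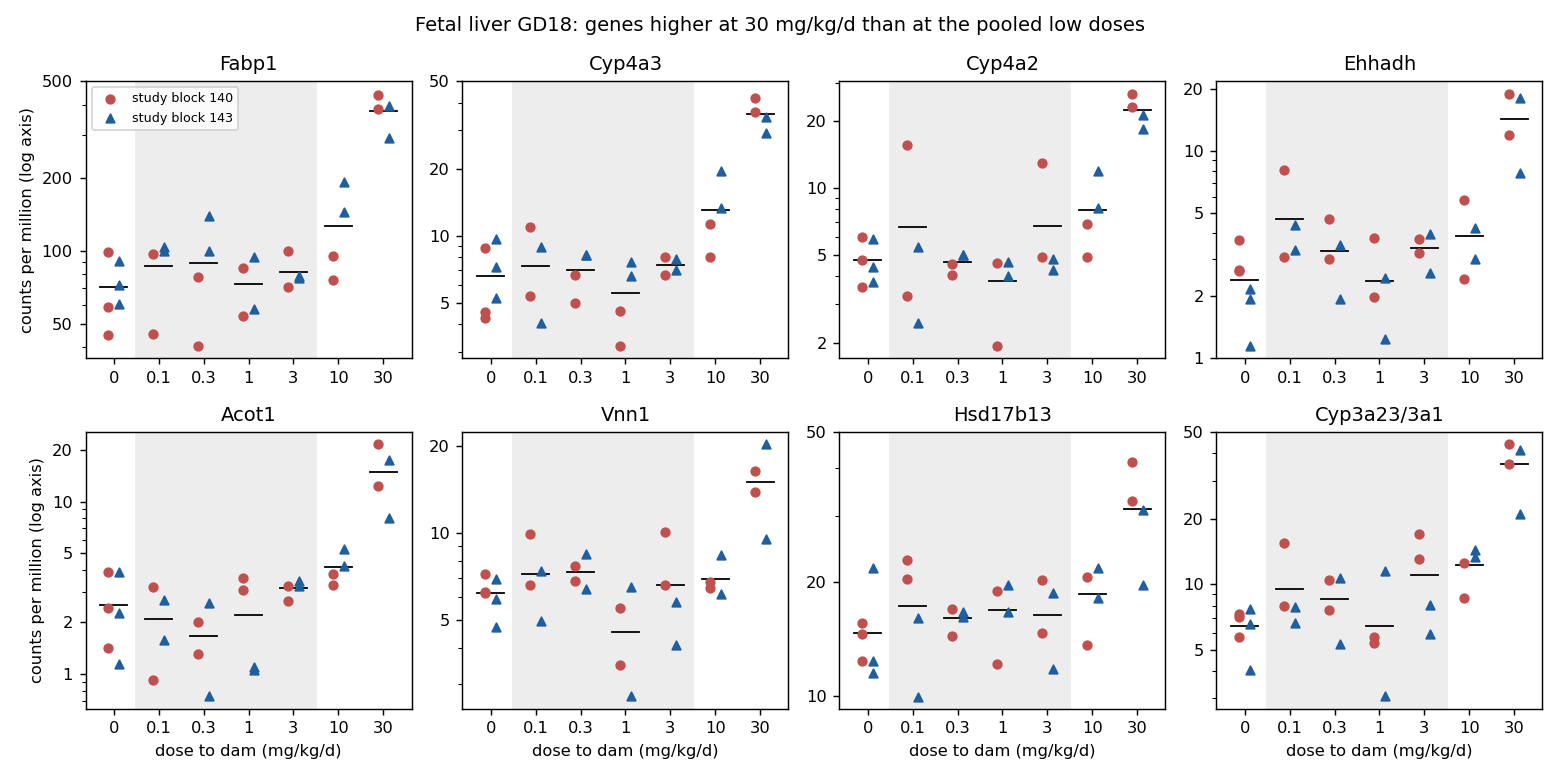
CPM on log axes of 8 genes in each fetal GD18 library by dose, low doses shaded, group means as lines, circles for block 140 and triangles for block 143. The low-dose libraries overlap the controls in every panel, and in 5 of the 8 panels (Fabp1, Cyp4a3, Cyp4a2, Acot1 and Cyp3a23/3a1) all 4 libraries at 30 mg/kg/d lie above every low-dose library.

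As a list, the PPAR-alpha lipid targets had 24 genes tested of 34 in the file. None was called and 1 (Ehhadh) had an unadjusted p under 0.05, against 1.41% of all genes in that direction. There were 17 genes above 0, beside 51.6% of all genes, and the list's median log2 fold change was 0.06, beside 0.01 for all genes. Their summed level was 601 to 874 CPM at the low doses and 602 to 769 CPM in the controls. Per dose the list's median was 0.11 at 0.1, 0.14 at 0.3, 0.02 at 1 and 0.09 at 3 mg/kg/d.

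The higher doses were then set against the low doses. The contrasts of 30 and of 10 mg/kg/d with the pooled low doses use no control library, but they share the 16 low-dose libraries with the comparison above and are not independent of it. At 30 mg/kg/d edgeR called 18 of 12659 genes (0.142%), 17 higher and 1 lower than at the low doses. Cyp4a3 rose from 6.81 ± 2.00 CPM (SD, n = 16) to 35.4 ± 5.16 CPM (SD, n = 4), by 2.46 ± 0.18 on the log2 scale (SE, edgeR adjusted p = 8.11e-11). Fabp1 rose from 82.5 ± 25.3 to 376 ± 61.8 CPM, by 2.28 ± 0.20 on the log2 scale. Acot1 rose by 2.76 ± 0.27, Ehhadh by 2.13 ± 0.22 and Cyp4a2 by 2.12 ± 0.25 on that scale.

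Other PPAR-alpha lipid targets also rose at 30 mg/kg/d. Vnn1 rose by 1.29 ± 0.18 (log2 ± SE), Hsd17b13 by 0.96 ± 0.17 and Adtrp by 0.94 ± 0.13. Cpt1b, Acaa2, Abhd15, Etfdh and Qpct are outside that list, and were named outside the rule for named genes after their values were seen. They rose by 1.49, 0.61, 0.82, 0.77 and 0.79 against the low doses. The low doses against control gave -0.32, -0.01, -0.39, -0.19 and 0.10 for the same genes. For Abhd15 that interval was -0.68 to -0.10 (edgeR unadjusted p = 0.0112), without a call. Its mean was 6.58 CPM in the controls, 5.14 CPM at the low doses and 8.64 CPM at 30 mg/kg/d. Cpt1b is the muscle-type carnitine transferase, Acaa2 the last thiolase of mitochondrial beta-oxidation, and Etfdh passes electrons from that pathway to the respiratory chain. Qpct, an enzyme that modifies the ends of peptides, is in none of the lists. Baiap2l1, an adaptor of the actin cytoskeleton, fell by 0.95 on the log2 scale. With 1 of the 30 libraries left out in turn, 13 to 21 genes were called. Hsd17b13 was no longer called without the 30 mg/kg/d library of dam 2083 (edgeR adjusted p = 0.0917), Acaa2 without that of dam 2082 or 2127 (up to 0.215), Etfdh without that of dam 2083 or 2127 (up to 0.693) and Qpct without that of dam 2082, 2083 or 2128 (up to 0.186). Baiap2l1 was no longer called in 7 of these fits, without any of the 4 libraries at 10 mg/kg/d or without that of dam 2082, 2083 or 2127 at 30 mg/kg/d (edgeR adjusted p up to 0.755). Etfdh also lost its call with the receptor sum as a covariate (edgeR adjusted p = 0.0508). Of 26 PPAR-alpha lipid targets tested there, 10 rose and none fell, with a median log2 fold change of 0.39 beside -0.07 for all genes. The members of that list were chosen with earlier results of these data known, so the count describes and does not test.

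The upper ends of the 95% intervals for the low doses against control were 0.43 for Cyp4a3, 0.62 for Fabp1, 0.53 for Acot1 and 0.38 for Vnn1 (log2). The lower ends for 30 mg/kg/d against the low doses were 2.09, 1.86, 2.20 and 0.92 for the same genes. At 10 mg/kg/d edgeR called 0 of 12659 genes against the low doses (0%), with 848 genes at an unadjusted p under 0.05, of which 738 were lower. DESeq2 also called 0 there, with 552 at an unadjusted p under 0.05. At 30 mg/kg/d edgeR gave 1259 genes at an unadjusted p under 0.05, of which 930 were lower. The low doses include the libraries of dams 2073, 2074 and 2079, with receptor sums above 1000 CPM. At 10 and 30 mg/kg/d that sum was at most 476 CPM. The part of that in the share of lower genes was not tested. Cyp4a3 gave 8.05, 11.4, 19.6 and 13.4 CPM at 10 mg/kg/d, and 3 of these 4 values exceeded every low-dose library, with a log2 fold change of 0.98 (0.57 to 1.39) and an adjusted p of 0.361. Acot1 also had 3 of 4 libraries above every low-dose library, with 0.96 (0.30 to 1.61), and Fabp1 had 2 of 4, with 0.63 (0.17 to 1.08).

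**Figure D3:**
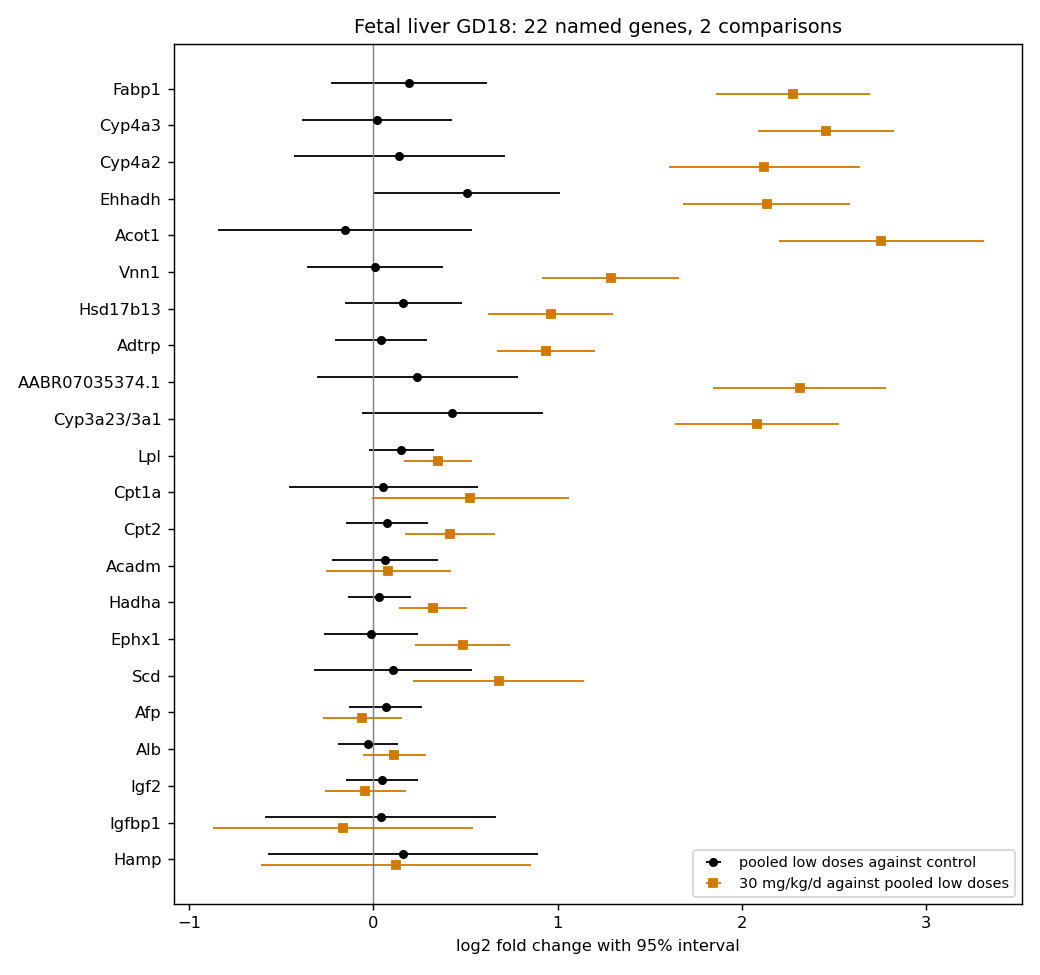
Log2 fold changes with 95% intervals for 22 genes, black circles for the pooled low doses against control and orange squares for 30 mg/kg/d against the pooled low doses, which share the 16 low-dose libraries. For Cyp4a3 the intervals are -0.39 to 0.43 and 2.09 to 2.82, and for alpha-fetoprotein (Afp) both include 0.

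No drug-metabolising gene was called at the low doses. Cyp3a23/3a1, a PXR-driven monooxygenase (chromosome 12, 11655402 to 11733137), had 4.02, 6.83 and 7.72 CPM in the controls and 3.07, 7.92 and 16.98 CPM at the low doses, as lowest, median and highest. There were 9 low-dose libraries above every control and 1 below, and the log2 fold change was 0.43 (-0.06 to 0.92, unadjusted p = 0.083). At 3 mg/kg/d its libraries had 13.1 and 16.98 CPM in block 140 and 8.08 and 5.90 CPM in block 143. Against control the log2 fold change at that dose was 0.74 (0.12 to 1.35, unadjusted p = 0.0212). The library at 16.98 CPM was that of dam 2079, which had a receptor sum of 4861 CPM, and the part of that in this level was not tested. The gene model AABR07035374.1, which lies inside the interval of Cyp3a23/3a1, gave 0.24 (-0.31 to 0.78), and reads of the pair may be divided between them. At 30 mg/kg/d both rose against the low doses, by 2.08 ± 0.22 and 2.31 ± 0.23 (log2 ± SE). Ephx1, the microsomal epoxide hydrolase, gave -0.01 (-0.27 to 0.25) at the low doses, and Cyp2b1, a CAR target at a mean of 1.75 CPM in the controls, gave 0.10 with an interval from -1.39 to 1.58. Cyp1a1, the marker enzyme of AhR, and Cyp2b2 were below the filter. Of the 15 tested CAR and PXR targets none had an unadjusted p under 0.05, and their median was 0.10.

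No other metabolic or stress list held a called gene. Over the 24 biology lists the medians of the pooled low-dose log2 fold changes ran from -0.05 for the 3 tested AhR targets to 0.12 for the 7 tested bile acid genes, beside 0.01 for all genes. Cholesterol synthesis had a median of -0.00 over 19 genes, with the demethylase Msmo1 at -0.21. Fatty acid synthesis had a median of 0.05 over 17 genes, with the desaturase Scd at 0.11 (-0.32 to 0.54) and Srebf1, the transcription factor of lipid synthesis, at 0.45 (-0.04 to 0.93). Mitochondrial beta-oxidation had a median of 0.04 over 20 genes, and its gene of smallest p, Acad9, gave 0.15 (its estimated counts are not all whole, as are those of Srebf1). The ketone dehydrogenase Bdh1 gave 0.19, glycogen synthase Gys2 0.23, the bile acid importer Slc10a1 -0.38 and Nags, which makes the activator of the urea cycle, -0.21.

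Stress and growth genes were not called either. Hmox1, the haem oxygenase that breaks down haem and is a target of NRF2, was 108 to 191 CPM at the low doses and 142 to 247 CPM in the controls, a log2 fold change of -0.25 (-0.49 to -0.01, unadjusted p = 0.0415), while Nqo1 of the same list gave -0.16. The p53 target Phlda3 gave -0.38, the chaperone Hspa5 -0.16, transthyretin (Ttr), a carrier of thyroid hormone, 0.22, Stat5a, which relays growth hormone, 0.28, and the immediate early gene Egr1 0.24. Period gene Per3 gave 0.35 (0.02 to 0.69, unadjusted p = 0.0405), Bnip3, a mitochondrial gene of the hypoxia response, 0.34 (0.04 to 0.64, unadjusted p = 0.0261), and Slc25a37, the mitochondrial iron importer of red cell precursors, 0.29 (0.05 to 0.53, unadjusted p = 0.0214). None of these passed the adjusted threshold.

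No gene of hepatocyte identity was called. Alpha-fetoprotein (Afp) was 10815, 13715 and 16239 CPM in the controls and 11992, 14558 and 16772 CPM at the low doses, as lowest, median and highest, with a log2 fold change of 0.07 (-0.13 to 0.27). Albumin (Alb) gave -0.03 (-0.19 to 0.13), the fetal growth factor Igf2 0.05 (-0.15 to 0.24), its binding protein Igfbp1 0.04 (-0.58 to 0.67) and the iron hormone Hamp 0.16 (-0.57 to 0.90). The 15 fetal hepatocyte markers had a median of 0.07 with 11 above 0, and the 27 erythroid markers a median of 0.03 with 16 above 0. Of all genes, 51.6% were above 0. Abundant transcripts were attenuated in all libraries, so a level is compared here between libraries and not between genes.

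The genes of smallest unadjusted p, 8 in each direction among genes whose mean log2 CPM reached 3, came next. They were chosen by their p in this comparison, so their values describe and do not test. On the higher side, 3 of the 8 belong to the complement and clotting proteins that the liver secretes. C1s, the serine protease of the first complement component (chromosome 4, 157143592 to 157155610), had 20.1, 28.2 and 35.1 CPM in the controls and 31.4, 35.0 and 44.04 CPM at the low doses. All 16 low-dose libraries lay above the control median and 7 above every control. The controls themselves split by block, with 31.9, 35.1 and 31.6 CPM in block 140 and 20.6, 20.1 and 24.8 CPM in block 143. The log2 fold change was 0.41 ± 0.10 (SE, adjusted p = 0.721 by edgeR), 0.26 in block 140 and 0.64 in block 143 alone.

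F12 and F11, clotting factors XII and XI, gave 0.48 (0.22 to 0.74) and 0.31 (0.12 to 0.50). F12 had 6.00, 8.24 and 11.5 CPM in the controls and 7.98, 12.4 and 15.4 CPM at the low doses, with 12 of 16 above every control. At 10 mg/kg/d F12 had 10.0, 8.83, 9.09 and 7.55 CPM, within the range of the controls, and at 30 mg/kg/d it had 12.04, 13.2, 13.1 and 9.67 CPM, of which 3 were above every control. Rgn, a calcium-binding protein of hepatocytes, had 16.4, 19.4 and 24.1 CPM in the controls and 19.4, 27.8 and 36.0 CPM at the low doses, with 13 of 16 above every control and a log2 fold change of 0.44 (0.21 to 0.67). Nr2f2, an orphan nuclear receptor whose estimated counts are not all whole, gave 0.36, the carboxypeptidase Scpep1 0.59, the mitotic phosphatase Cdc25c 0.40 and the RNA-binding protein Rbm47 0.66. Of the 28 tested complement and clotting genes, 21 were above 0, beside 51.6% of all genes, and the median was 0.10 beside 0.01 for all genes. The 3 at an unadjusted p under 0.05, beside 1.41% of all genes in that direction, were C1s, F11 and F12. These were picked above by their p, so this count is not a separate result. The list's summed level was 6592 to 9637 CPM at the low doses and 6598 to 8673 CPM in the controls and the ranges overlapped.

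On the lower side, Fbxo3, a subunit that picks targets for ubiquitin ligases (chromosome 3, 93968855 to 94000864), had the smallest p of all genes. Controls had 68.4, 89.4 and 102 CPM and low-dose libraries 47.8, 60.5 and 78.5 CPM, and 13 of 16 low-dose libraries were below every control. The log2 fold change was -0.55 ± 0.12 (SE, adjusted p = 0.562 by edgeR). Against control it was -0.75 at 0.1, -0.49 at 0.3, -0.41 at 1 and -0.51 at 3 mg/kg/d. At 10 mg/kg/d the libraries had 79.8, 66.2, 71.7 and 59.6 CPM, of which 2 were within the range of the controls and 1 was above every low-dose library. At 30 mg/kg/d they had 55.6, 70.8, 43.8 and 73.9 CPM, of which 2 were within the range of the controls and 1 was below every low-dose library. Estimated counts of Fbxo3 are not all whole. Stfa3, a stefin that inhibits cysteine proteases, had 18.0, 21.8 and 31.7 CPM in the controls and 6.81, 13.7 and 26.8 CPM at the low doses, with 14 of 16 below every control and a log2 fold change of -0.75 (-1.12 to -0.38). LOC689230, next to Stfa3 on chromosome 11, gave -0.68, with 14 of 16 below every control. The cytokine Il18 gave -0.55, the NF-kappaB adaptor Tifa -0.51, the tubulin cofactor Tbca -0.30, the mitochondrial ubiquitin ligase Mul1 -0.41 and the cyclophilin Ppig -0.30.

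**Figure D4:**
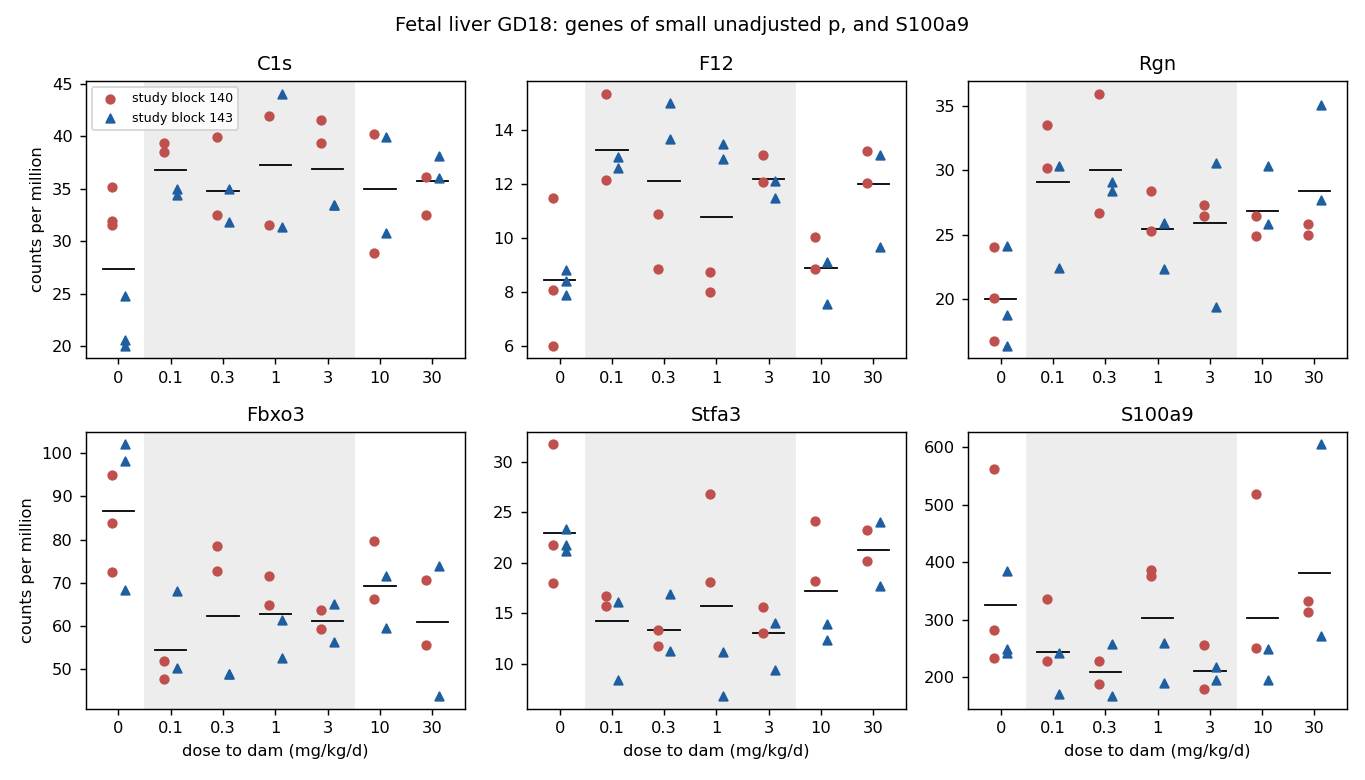
CPM of 6 genes in each fetal GD18 library by dose, low doses shaded, group means as lines, circles for block 140 and triangles for block 143; axes do not start at 0. C1s, F12 and Rgn lie mostly above the controls at the low doses, and Fbxo3 and Stfa3 mostly below, with 13 and 14 of 16 low-dose libraries under every control.

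Most tested markers of granulocytes, the white cells that carry antimicrobial granules, were lower in the pooled group without passing the threshold. S100a9, a subunit of calprotectin, had 234, 265 and 562 CPM in the controls and 167, 228 and 386 CPM at the low doses, with a log2 fold change of -0.44 (-0.83 to -0.05, unadjusted p = 0.0287). Its partner S100a8 gave -0.55, the cathelicidin Camp -0.62, the defensin RatNP-3b -0.48 and lipocalin Lcn2 -0.71, each with an unadjusted p under 0.05 and an adjusted p of 1.00. Of the list's 11 tested genes these 5 are 5 lower and 0 higher at that unadjusted p, beside 1.07% of all genes in that direction, and the list's median was -0.44. S100a8, S100a9, Camp and RatNP-3b were named after their values were seen. Not all markers went that way: 2 of the 11 tested were above 0, and the higher of these, Ctsg (cathepsin G), gave 0.39 (-0.26 to 1.03).

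The summed CPM of the 16 granulocyte markers was 532, 724 and 1163 in the controls of block 140 and 654, 651 and 869 in those of block 143. At the low doses it was 350 to 840 with a median of 553, against a control median of 689, so the ranges overlapped. The list's median was -0.44 at 0.1, -0.65 at 0.3, -0.06 at 1 and -0.50 at 3 mg/kg/d, and +0.36 for 30 mg/kg/d against the low doses. Without the control of dam 2071, the highest, the median was -0.32 and 0 of 11 genes had an unadjusted p under 0.05, and without the control of dam 2116 these were -0.26 and 2. Within block 140 alone the median was -0.29 with 0 such genes, and within block 143 alone -0.55 with 5. Macrophage markers had a median of -0.15, with 12 of 14 tested genes below 0 and 1 (Hmox1) at an unadjusted p under 0.05, and in block 140 alone that median was 0.01. Of all genes, 51.6% were above 0, and 1.07% were lower at that unadjusted p. In bulk tissue fewer cells of a type and less RNA per cell cannot be told apart.

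**Figure D5:**
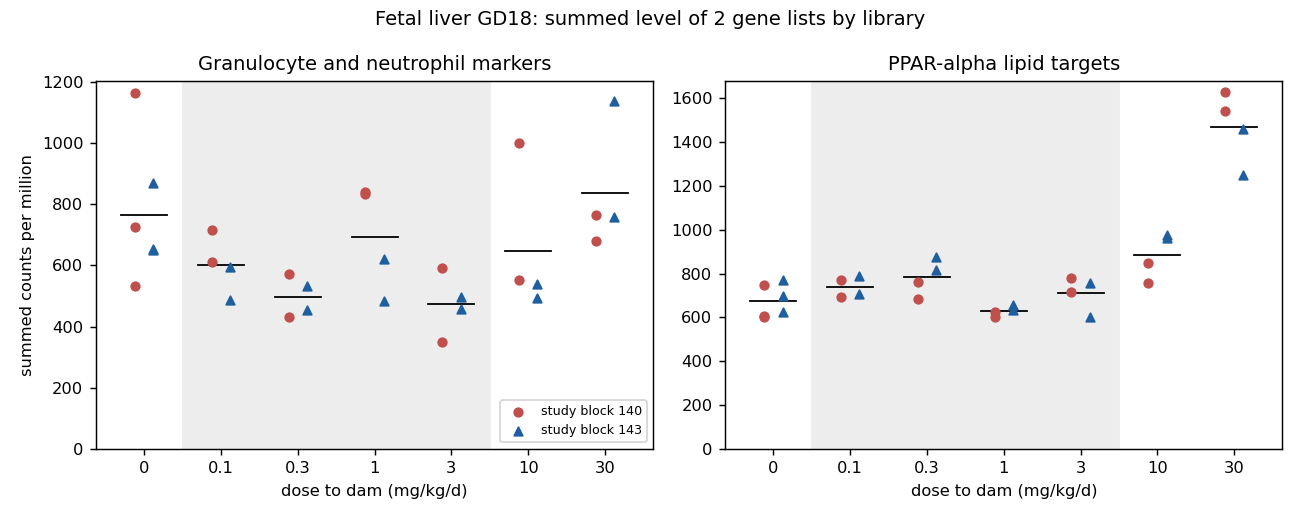
Summed CPM of granulocyte markers (left) and of PPAR-alpha lipid targets (right) in each fetal GD18 library by dose, low doses shaded, group means as lines, circles for block 140 and triangles for block 143. The granulocyte sum is highest in a control, 1163 CPM, and spans 350 to 840 CPM at the low doses, where the PPAR-alpha sum stays between 601 and 874 CPM.

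No gene was called by edgeR at a single low dose. Against control, edgeR called 0 of 12493 genes (0%) at each of 0.1, 0.3, 1 and 3 mg/kg/d, with 317, 176, 375 and 245 genes at an unadjusted p under 0.05. DESeq2 called 3 genes at 0.1 mg/kg/d and 0 at the other low doses. The 3 were F11, which was higher, and Fbxo3 and Nfs1, which were lower, and none of them was called by edgeR. Nfs1 had 3 counts or fewer in all 4 libraries at 0.1 mg/kg/d, but also in 1 of 6 controls, as described under other observations. The test for any difference among control and the 4 low doses called 0 of 12493 genes (0%), with 141 at an unadjusted p under 0.05. The slope over the order of control and doses called 0 of 10466 (0%), with 233 at that level, and the slope over the 4 low doses without controls called 0 of 10138 (0%), with 282. DESeq2 called 0 in each of these 3 tests.

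The pooled difference was also compared between blocks and with the dams. The interaction of block and low dose called 0 of 14188 genes (0%) by edgeR, with 680 at an unadjusted p under 0.05, and 1 by DESeq2 (Ssrp1, a histone chaperone). With block 143 alone 854 of 9844 genes had an unadjusted p under 0.05, and with block 140 alone 230 of 13982, with 0 called in either. The difference between the fetal and the maternal low-dose response called 0 of 14572 genes (0%) by edgeR, with 488 at an unadjusted p under 0.05. DESeq2 called 2 there, Fbxo3 and the Y-linked Kdm5d, which only male fetuses can express. Neither fit paired the fetal and maternal libraries of the same dam, so the p-values and intervals of this difference leave that pairing out. Fbxo3 had the smallest edgeR p of that test, a fetal minus maternal difference of -0.85 (-1.19 to -0.52) with an adjusted p of 0.0806, and its maternal log2 fold change was 0.33 (0.09 to 0.57). For Cyp4a3 the fetal minus maternal difference was 0.11 (-0.49 to 0.71), for Fabp1 0.14 (-0.41 to 0.69), for Ehhadh 0.39 (-0.24 to 1.02), and for Cyp3a23/3a1 -0.58 (-1.68 to 0.53), with a maternal log2 fold change of 1.03 (0.30 to 1.76, adjusted p = 0.805).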

How the data were processed

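Per the labels' protocols, a TempO-Seq probe set for 21119 genes was used on liver RNA and read with 50-base single reads. The submitters' processing notes name STAR 2.7.3a, Partek and genome build rn6, without giving their roles. The deposited table holds estimated counts for 20833 genes, of which 7.61% of values are not whole, and these were rounded for count tests. A second deposited table holds log2 values for 18129 genes. All 1631610 of them lie within 0.01 of log2(CPM + 0.0001) computed from the counts, and they were not tested. Total counts were 4263820 to 7265191 and are only part of what limits precision. Libraries of the same dose and block also differed beyond counting noise, with a chi-square per degree of freedom of 6.34 to 63.1 between pairs.

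Groups, doses, blocks and dams were taken from the labels. Tests used edgeR 4.0.16 in R 4.3.3 (filterByExpr, TMM scaling, robust quasi-likelihood fit, study block as a term) with Benjamini-Hochberg adjustment over all genes tested and a threshold of 0.05, two-sided. Standard errors and 95% intervals come from the same fit. DESeq2 1.42.0, limma 3.58.1 (voom), other scaling, no filter, no block term, each block alone, covariates, groups left out and each library left out were alternatives. The code was tested on simulated data. CPM values are counts divided by the library total.

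Genes named are the 8 higher and 8 lower of smallest unadjusted p whose mean log2 CPM reached 3, a set of lipid, drug-metabolism and fetal genes, the gene of smallest p in each of 24 biology lists, and up to 5 called genes in each direction of the other comparisons. There were also 19 marker lists, and 691 of 815 list entries are in the file. Members and lists were chosen with earlier results of these data known. Promoters are from RefSeq (GRCr8). Genes not in the file were not analysed here, and some genes of the named set are not reported here.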

Additional observations from a re-analysis of the deposited data

Results flagged for a closer look

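In groups of 4 to 10 libraries, 119 sets of values were checked for a single library far from the rest of its group. The sets were CPM of genes, total counts, genes with a count and haemoglobin percent, each by group. In 7 of the 119 sets, all of gene CPM, such a library was found, a share near the 1 in 20 that chance gives. In the 0.1 mg/kg/d group, dam 2073's library was the lowest for Fabp1 at 45.3 CPM and the highest for Cyp3a23/3a1 at 15.4 CPM. In the same group the library of dam 2118 was the lowest for Stfa3 at 8.40 CPM. In the 3 mg/kg/d group, dam 2079's library was the highest for Cyp4a2 at 12.9 CPM. The libraries of dams 2073 and 2079 also had receptor sums of 5335 and 4861 CPM, and the part of that in these levels was not tested. In the 10 mg/kg/d group, dam 2080's library was the highest for S100a9 at 520 CPM and for Camp at 92.1 CPM, and in the 30 mg/kg/d group that of dam 2127 was the highest for Camp at 81.3 CPM.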

How the results depend on the processing

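The pooled comparison called 0 genes under each alternative run and with each of the 22 libraries left out. For 30 mg/kg/d against the low doses, leaving out 1 library gave 13 to 21 genes. Other counts moved with the tool or the libraries used. DESeq2 called 3 genes at 0.1 mg/kg/d, 1 for the difference between blocks (Ssrp1), 2 for the fetal and maternal difference, and 28 for 30 mg/kg/d against the low doses. Block 143 alone gave 1 gene at 0.1 mg/kg/d (Srebf1) and 1 at 0.3 mg/kg/d (Hbg1), and the receptor covariate gave 1 (AABR07018272.1) for any difference among the low doses. With dam as a replicate block the fetal and maternal difference called 0 genes. Within the pooled comparison treated and control libraries share no dam, so they were not paired. The cause of these differences was not tested.

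None of the genes whose pooled log2 fold change turned sign was called in any setting. In block 140 alone the values were -0.16 for Acadm, 0.021 for Acot1, -0.13 for Adtrp, -0.021 for Afp, 0.014 for Alb, -0.10 for Cpt1a, -0.056 for Cyp2b1, -0.46 for Hamp, 0.045 for Hmox1 and -0.100 for Scd. In block 143 alone they were -0.069 for Cyp4a2, -0.040 for Cyp4a3, 0.068 for Ephx1, -0.22 for Igfbp1, 0.037 for Nqo1 and -0.084 for Vnn1. With the haemoglobin covariate they were 0.00055 for Alb, -0.95 for Cyp2b1, -0.018 for Cyp4a2, -0.022 for Cyp4a3, 0.045 for Ephx1 and -0.045 for Vnn1. With limma-voom they were 0.051 for Acot1, -1.08 for Cyp2b1, -0.087 for Cyp4a2, -0.065 for Cyp4a3, 0.0098 for Ephx1, -0.015 for Igfbp1 and -0.10 for Vnn1. With the Y-linked covariate they were -0.15 for Cyp2b1, 0.058 for Ephx1 and -0.0058 for Vnn1. With the receptor and Y-linked covariates the value was 0.020 for Ephx1. With no block term they were -0.0053 for Acadm and -0.046 for Cyp2b1. With no filter on low counts the value was 0.0027 for Ephx1. Without 0.1 mg/kg/d they were -0.057 for Cpt1a, -0.083 for Cyp2b1, -0.13 for Igfbp1 and -0.022 for Vnn1. Without 0.3 mg/kg/d they were -0.034 for Adtrp, 0.011 for Ephx1, -0.0075 for Igf2 and -0.072 for Vnn1. Without 1 mg/kg/d the value was -0.012 for Hadha. Without 3 mg/kg/d they were -0.36 for Cyp2b1, -0.034 for Cyp4a3 and -0.0063 for Vnn1. With 10 mg/kg/d added to the pool they were 0.094 for Acot1, 0.057 for Ephx1 and -0.091 for Igfbp1.

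With 1 library left out the ranges that crossed 0 were -0.29 to 0.080 for Acot1, -0.020 to 0.11 for Adtrp, -0.061 to 0.027 for Alb, -0.022 to 0.30 for Cpt1a, -0.40 to 0.51 for Cyp2b1, -0.068 to 0.18 for Cyp4a3, -0.074 to 0.15 for Ephx1, -0.023 to 0.56 for Hamp, -0.096 to 0.33 for Igfbp1, -0.27 to 0.043 for Nqo1 and -0.033 to 0.090 for Vnn1. Among genes of low counts, Cyp2b1, Acot1 and Hamp had SEs of 0.72, 0.33 and 0.35.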

Other observations

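Leaving out Y-linked genes, 2 genes were at 3 counts or fewer in at least 3 fetal libraries and at 100 or more in all others, and they were chosen after their values were seen. Nfs1, the cysteine desulfurase of iron-sulfur cluster assembly (chromosome 3), had at most 2 counts in 15 of 30 fetal libraries and 273 to 979 in the others. The low libraries were 1 of 6 controls, 10 of 16 at the low doses (all 4 at 0.1 mg/kg/d and 2 at each of 0.3, 1 and 3 mg/kg/d), 1 of 4 at 10 mg/kg/d and 3 of 4 at 30 mg/kg/d. Of the dams, 20 of 30 had 3 counts or fewer, and these were the dams of 12 of the 15 low fetal libraries and of 8 of the other 15. The pooled log2 fold change of Nfs1 was -1.16 (95% interval -3.56 to 1.23). Spin1, a reader of histone marks (chromosome 16), had at most 3 counts in 3 fetal libraries, 2 at 0.1 mg/kg/d and 1 at 10 mg/kg/d, and 119 to 503 in the others.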
